A study of Homo sapiens with 6 samples.

Results

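The genes described here are the cyclins, the cyclin-dependent kinases (CDKs), the E2F and DP transcription factors, the retinoblastoma (RB) family and a few of their direct regulators. They were chosen by name, with earlier results of these data known. Of 38 named genes, 37 had a row in the expression table. CDKN2C, which encodes an inhibitor of CDK4 and CDK6, had none, so it has no value here. The 37 members are 37 of the 11048 genes listed. They were grouped by the part of the cell cycle in which they act: 6 at entry into G1, 6 in the kinase machinery of the G1/S step, 9 among the RB and E2F-DP factors of G1, 5 in S phase, 7 in G2/M and 4 with no single phase. This grouping rests on general knowledge and was also made with earlier results of these data known.

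Gene expression was measured by sequencing polyA RNA of MM1.S cells, an established human multiple myeloma line, that is, a line of malignant plasma cells. The cells were exposed for 6 h to DMSO, the solvent control, to 3 µM CCF642, a small-molecule inhibitor of the protein disulfide isomerase PDIA1, or to 3 µM CCF642-34, an analogue of it. Each of the 3 groups had 2 libraries, and nothing in the labels says that these came from separate cultures, so the p-values below measure only the spread between these libraries, which may be technical. Each compound was compared with DMSO to see which genes it changed, and the 2 compounds were compared with each other at the same dose and time.

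Cyclins are the regulatory subunits that switch CDKs on, and each pair is used at a given step of the cycle. D-type cyclins with CDK4 or CDK6, then E-type cyclins with CDK2, phosphorylate RB, which releases E2F-DP factors from repression, and E2F then drives transcription of the genes of G1/S and of DNA replication. A-type and B-type cyclins with CDK2 and CDK1 carry the cell through S phase and into mitosis. The inhibitors of the CDKN families and the kinase WEE1 restrain the kinases. Ubiquitin ligases such as those of SKP2 and cyclin F mark proteins for degradation, and that of SKP2 so removes the inhibitor p27 (CDKN1B). Myeloma cells characteristically express a D-type cyclin, often CCND2 in lines that also express the transcription factor MAF.

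The libraries held between 20567313 and 28459677 reads, as recovered from the steps of the CPM values, that is, of counts scaled to equal library totals. All 9 plasma cell markers looked for were listed, among them MAF, at 1309 and 1351 in the DMSO libraries, 528.6 and 523 with CCF642, and 655 and 643 with CCF642-34, whereas 0 of 3 B cell and 0 of 3 monocyte markers were listed and, of 3 T cell markers, CD3E was listed at 2.11 to 3.33. Of the 9 plasma cell markers, 3 were higher and 6 lower with CCF642, and 1 was higher and 6 lower with CCF642-34, by the test used below. Of all genes 31.8% were higher and 31.3% lower with CCF642, and 29.7% and 27.9% with CCF642-34. The part of these marker changes in the members' values was not tested.

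Most members fell with each compound. With CCF642, 22 of the 37 members were lower and 9 higher than in DMSO, and 6 did not pass the test, a limma moderated test on log2(CPM + 1) with Benjamini-Hochberg adjustment over all 11048 genes and a threshold of 0.05. Of all genes tested 63.1% were called in this comparison, 31.3% as lower and 31.8% as higher. With CCF642-34, 24 members were lower, 8 higher and 5 not called, where 57.6% of all genes were called, 27.9% as lower and 29.7% as higher. The median log2 fold change of the members was −0.44 with CCF642 and −0.29 with CCF642-34, while over all genes it was −0.0068 and 0.0062. By a rule of at least a 2-fold change with an unadjusted p under 0.05, 5 members were lower with CCF642, namely CCNF, CCNE1, SKP2, CCNB1 and E2F8, and 5 with CCF642-34, namely CCNE1, CCNF, E2F8, SKP2 and CCNE2, and 0 members were higher with either compound. That rule was met by 6.49% of all genes with CCF642, 1.99% in the lower and 4.5% in the higher direction, and by 3.88% with CCF642-34, 1.29% in the lower and 2.59% in the higher direction.

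Levels and fold changes are given after trimmed mean of M values (TMM) scaling, and a level is in scaled CPM. With libraries scaled by size alone the median over all 11048 genes was −0.13 (CCF642) and −0.078 (CCF642-34), and of the genes then called 34.8% and 38.6% were higher, against 50.4% and 51.6% after TMM scaling. Among the members this gave 5 higher and 25 lower with CCF642 and 5 higher and 26 lower with CCF642-34. RNA was taken from whole cultures, so fewer cells in a phase and less RNA of a gene per cell cannot be told apart in any value below.

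**Figure D1:**
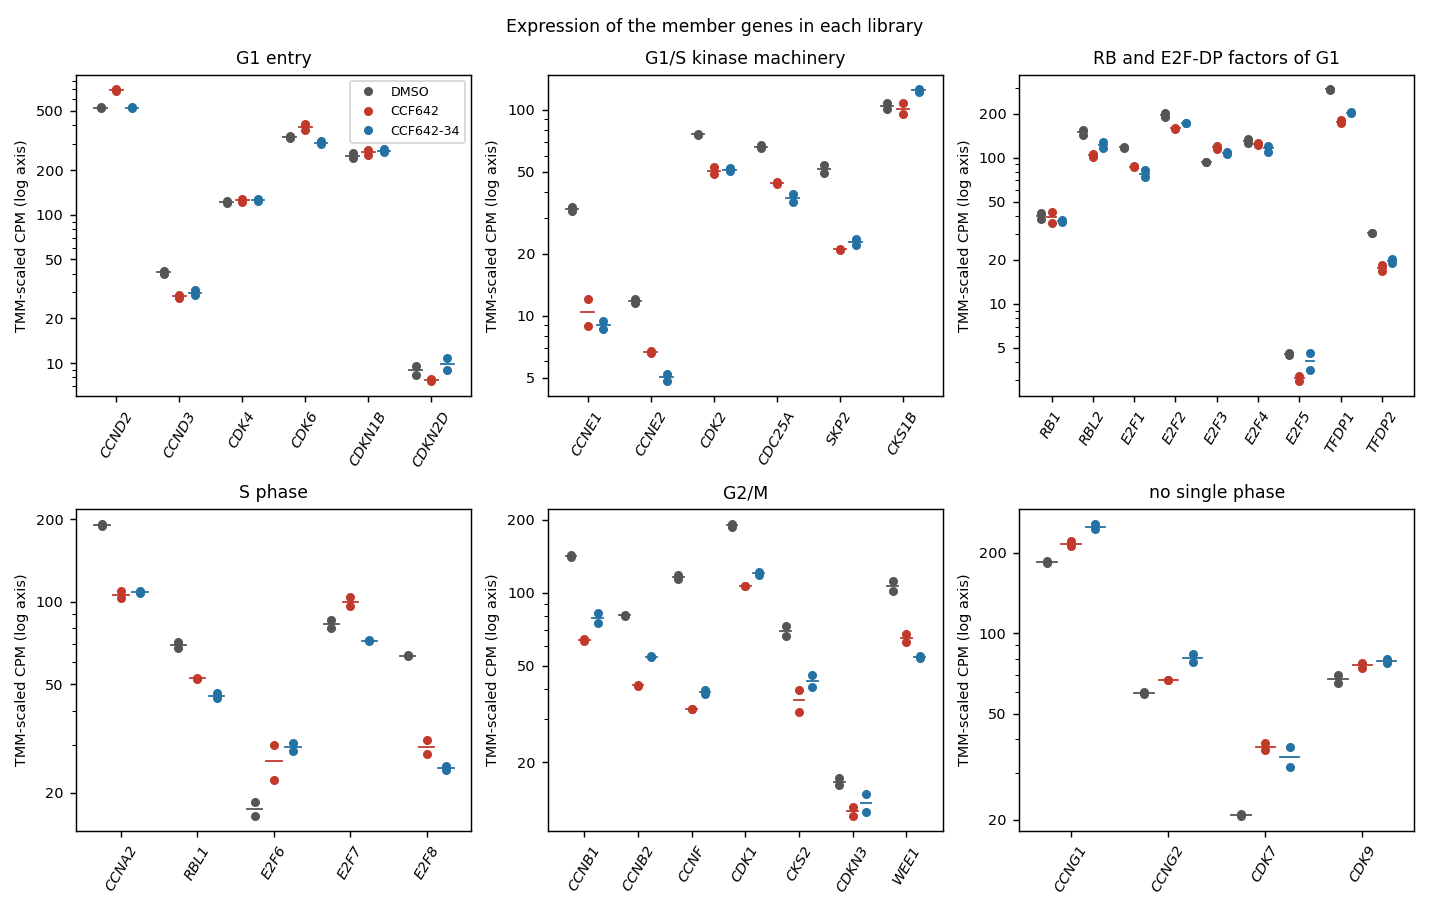
Level of each of the 37 members in each library, in TMM-scaled CPM on a log axis, with 1 panel for each role; points are libraries (grey, DMSO; red, CCF642; blue, CCF642-34) and the short lines are the means of 2 libraries. In the G2/M panel the grey points of all 7 genes lie above the red and blue points, whereas in the panel of genes with no single phase they lie below.

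**Figure D2:**
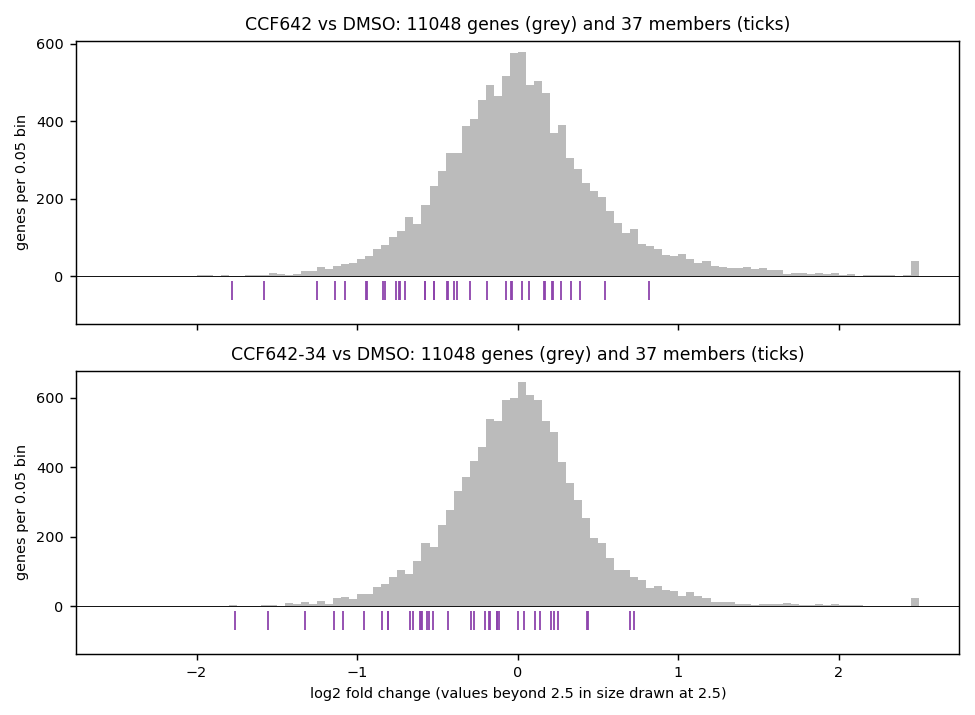
Distribution of the log2 fold change against DMSO over 11048 genes (grey, number of genes per bin of 0.05) with the 37 members drawn as ticks under it, for CCF642 (top) and CCF642-34 (bottom); values beyond 2.5 in size are drawn at 2.5. The ticks reach down to −1.78 with CCF642 and −1.76 with CCF642-34 and up to 0.82 and 0.72.

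The genes of G1 entry moved in different directions. CCND2, a D-type cyclin, was at 526 and 529.5 in the DMSO libraries, 702 and 677 with CCF642, and 522 and 533 with CCF642-34. Both CCF642 libraries lay above all others, and those of CCF642-34 lay on either side of the DMSO pair. The log2 fold change was 0.38 (SE 0.038, adjusted p = 1.62e-12) with CCF642 and −0.00059 (adjusted p = 0.991) with CCF642-34, where scaling by library size alone gave a called fall (−0.090, adjusted p = 0.0349). CCND3, the other D-type cyclin among the members, was at 39.6 and 42.0 in DMSO, 27.4 and 28.9 with CCF642, and 30.9 and 28.8 with CCF642-34. It fell with both compounds, with log2 fold changes of −0.52 (adjusted p = 2.73e-07) and −0.44 (adjusted p = 9.00e-06). CDK6, one of the catalytic partners of the D-type cyclins, was at 341 and 331 in DMSO, 371 and 409.6 with CCF642, and 301 and 312 with CCF642-34. The groups did not overlap, and CDK6 was higher with CCF642 (log2 fold change 0.22, adjusted p = 2.75e-05) and lower with CCF642-34 (−0.13, adjusted p = 0.00762).

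The rise of CDK6 with CCF642 was not called when libraries were scaled by size alone (0.082, adjusted p = 0.0898), and its fall with CCF642-34 was not called without DMSO replicate 1 (−0.11, adjusted p = 0.115) or without CCF642-34 replicate 1 (−0.11, adjusted p = 0.101). CDK4, the other partner, ranged from 121 to 128 over the 6 libraries, with log2 fold changes of 0.026 and 0.039 that were not called and became −0.11 and −0.050 when scaled by library size alone. Of its exon bases 43.2% overlap TSPAN31 on the opposite strand in the GENCODE annotation, and whether strand was used in counting is not given in the sources used here. Of the members, 12 share exon bases with opposite-strand genes, among them CCNE2 (37.1%), E2F5 (18.6%), RBL2 (18.2%) and CDK2 (16.8%). On the same strand 3 do, among them CCND2 (13.8%). The inhibitor CDKN1B (p27), a target of the SKP2 ligase, was at 259.7 and 240.5 in DMSO, 275 and 251 with CCF642, and 277 and 263 with CCF642-34. Its log2 fold change was 0.11 with CCF642-34 (adjusted p = 0.0396), but 0.020 (adjusted p = 0.730) when scaled by library size alone. That call was also lost under a filter at a mean of 5 CPM (adjusted p = 0.0588), by DESeq2 on recovered reads (adjusted p = 0.108), without DMSO replicate 2 (0.054, adjusted p = 0.487) and without CCF642-34 replicate 1 (0.073, adjusted p = 0.311), while without DMSO replicate 1 the value was 0.16 (adjusted p = 0.0193). With CCF642 the value was 0.071 (adjusted p = 0.178), which became −0.062 when scaled by library size alone and was called as higher only without CCF642 replicate 2 (0.14, adjusted p = 0.00980). CDKN2D (p19), an inhibitor of CDK4 and CDK6, ranged from 7.54 to 10.9 and was not called with either compound, although with CCF642 it was called as lower when scaled by library size alone (−0.31, adjusted p = 0.0416).

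The machinery of the G1/S step fell, apart from CKS1B. CCNE1, which encodes cyclin E1, the partner of CDK2 at the entry into S phase, was at 32.2 and 33.7 in the DMSO libraries, 12.0 and 8.88 with CCF642, and 9.43 and 8.60 with CCF642-34. All 4 treated libraries lay far below the DMSO pair. The log2 fold change was −1.58 (SE 0.12, adjusted p = 2.20e-16), 2.99-fold lower, with CCF642 and −1.76 (SE 0.12, adjusted p = 7.33e-18), 3.39-fold lower, with CCF642-34, where only 4 of the 11048 genes had a lower value. CCNE2, encoding cyclin E2, was at 12.0 and 11.6 in DMSO, 6.72 and 6.61 with CCF642, and 4.80 and 5.22 with CCF642-34. Its log2 fold changes were −0.74 (adjusted p = 9.33e-06) and −1.09 (adjusted p = 3.51e-09), and 37.1% of its exon bases overlap genes on the opposite strand. CDK2 itself was at 76.7 and 75.8 in DMSO, 52.9 and 48.6 with CCF642, and 50.4 and 52.0 with CCF642-34. The treated groups overlapped each other and lay below DMSO, with log2 fold changes of −0.58 (adjusted p = 9.75e-11) and −0.57 (adjusted p = 2.53e-10).

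CDC25A, the phosphatase that removes the inhibitory phosphates placed by WEE1, was at 65.1 and 67.4 in DMSO, 44.6 and 43.7 with CCF642, and 35.6 and 39.2 with CCF642-34. It fell with both, by −0.58 (adjusted p = 8.82e-10) and −0.81 (adjusted p = 5.15e-14) on the log2 scale. SKP2, the F-box protein through which p27 is marked for degradation, was at 49.2 and 53.8 in DMSO, 21.2 and 20.8 with CCF642, and 23.5 and 22.0 with CCF642-34. This was 2.38-fold lower with CCF642 (log2 fold change −1.25, SE 0.085, adjusted p = 8.41e-18) and 2.21-fold lower with CCF642-34 (−1.14, SE 0.085, adjusted p = 3.26e-16). CKS1B, the small cofactor with which SKP2 recognises p27, was at 101 and 108 in DMSO, 108 and 95.5 with CCF642, and 123 and 126 with CCF642-34. CKS1B was the single member of this step that rose, with CCF642-34 (0.25, adjusted p = 1.53e-04). That call was lost under a gene-wise model that shares no variance between genes (adjusted p = 0.104). With CCF642 the log2 fold change of CKS1B was −0.043 (adjusted p = 0.52), which scaling by library size alone turned into a called fall (−0.18, adjusted p = 0.00581). Reads of its 6 named pseudogene copies could not be set apart.

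Among the RB and E2F-DP factors of G1, 6 of 9 fell with each compound and 1, E2F3, rose with each. Of all genes 31.3% were lower and 31.8% higher with CCF642, and 27.9% and 29.7% with CCF642-34. RB1, the gene of the retinoblastoma protein, was at 41.5 and 38.2 in DMSO, 35.6 and 42.5 with CCF642, and 37.2 and 36.1 with CCF642-34, and was not called in either comparison (log2 fold changes −0.035 and −0.12), although scaling by library size alone made the CCF642-34 value a called fall (−0.20, adjusted p = 0.0261). Its relative RBL2 (p130), which with E2F4 forms the repressor complex of quiescent cells, was at 155 and 144 in DMSO, 101 and 106 with CCF642, and 116 and 128 with CCF642-34. RBL2 fell by −0.52 (adjusted p = 1.06e-11) and −0.29 (adjusted p = 1.04e-05) on the log2 scale. The activators of this family differed. E2F1 was at 116 and 118 in DMSO, 85.6 and 87.1 with CCF642, and 81.8 and 73.3 with CCF642-34, with log2 fold changes of −0.44 (adjusted p = 4.27e-09) and −0.59 (adjusted p = 1.31e-12). E2F2 was at 201 and 191 in DMSO, 158 and 160.3 with CCF642, and 172 and 173 with CCF642-34, with log2 fold changes of −0.30 (adjusted p = 2.63e-07) and −0.18 (adjusted p = 8.76e-04), the last not called without DMSO replicate 1 (−0.14, adjusted p = 0.0616). E2F3, against these, was at 92.8 and 93.7 in DMSO, 120.0 and 115 with CCF642, and 106 and 109 with CCF642-34. All treated libraries of E2F3 lay above the DMSO pair, and the log2 fold changes were 0.33 (adjusted p = 4.80e-07) and 0.21 (adjusted p = 8.46e-04), the last not called when scaled by library size alone (0.12, adjusted p = 0.0538).

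The DP subunits, without which these E2F proteins bind DNA poorly, fell together. TFDP1 was at 293 and 291 in DMSO, 172 and 179 with CCF642, and 201 and 204 with CCF642-34, with log2 fold changes of −0.73 (SE 0.044, adjusted p = 1.12e-19) and −0.53 (SE 0.044, adjusted p = 1.70e-14). TFDP2 was at 30.6 and 30.4 in DMSO, 16.9 and 18.5 with CCF642, and 19.1 and 20.1 with CCF642-34, with log2 fold changes of −0.76 (adjusted p = 1.58e-09) and −0.61 (adjusted p = 2.76e-07). For both genes the DMSO pair lay above all treated libraries. The repressor-type E2F4 was at 133 and 127 in DMSO, 126 and 122 with CCF642, and 121 and 110.0 with CCF642-34. It was called as lower with CCF642-34 (−0.17, adjusted p = 0.00483), though not without DMSO replicate 1 (−0.14, adjusted p = 0.109) or CCF642-34 replicate 2 (−0.10, adjusted p = 0.175), and with CCF642 the value was −0.072 (adjusted p = 0.234), called as lower when scaled by library size alone (−0.21, adjusted p = 7.48e-04). E2F5, listed at 2.96 to 4.64, was called as lower with CCF642 (−0.44, adjusted p = 0.0251), a call lost without DMSO replicate 1 (−0.46, adjusted p = 0.0725), DMSO replicate 2 (−0.41, adjusted p = 0.106) or CCF642 replicate 2 (−0.39, adjusted p = 0.0859), and was not called with CCF642-34 (−0.13).

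Because several of these genes moved together, the promoters were searched for the site that E2F-DP binds, written here as TTTCCCGC, TTTCGCGC, TTTGCCGC or TTTGGCGC on either strand. The windows, from RefSeq on GRCh38.p14, ran from 250 bases before to 50 bases after each annotated start, and 31 of the 37 members had at least 1. Of the 8 RB and E2F-DP genes with a window, E2F1, E2F2, E2F3 and TFDP1 held such a match, against 605 (6.82%) of the 8871 listed genes with a window. The members that held it moved both ways, since E2F3 rose with both compounds and E2F1, E2F2 and TFDP1 fell. Over all members 7 of 31 held it, the others being CDC25A, RBL1 and CDK1. E2F1 and RBL1 are shown because each holds 2 matches close to the start, with the 250 bases before the start in the direction of transcription and the E2F matches and any CCAAT box (on either strand) in capitals.
E2F1 (chr20:33686386-33686635, minus strand): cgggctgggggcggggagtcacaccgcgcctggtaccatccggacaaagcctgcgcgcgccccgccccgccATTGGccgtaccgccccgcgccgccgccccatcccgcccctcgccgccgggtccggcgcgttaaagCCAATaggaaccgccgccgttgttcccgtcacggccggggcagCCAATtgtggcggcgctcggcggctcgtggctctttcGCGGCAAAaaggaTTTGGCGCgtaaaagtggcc
RBL1 (chr20:37095998-37096247, minus strand): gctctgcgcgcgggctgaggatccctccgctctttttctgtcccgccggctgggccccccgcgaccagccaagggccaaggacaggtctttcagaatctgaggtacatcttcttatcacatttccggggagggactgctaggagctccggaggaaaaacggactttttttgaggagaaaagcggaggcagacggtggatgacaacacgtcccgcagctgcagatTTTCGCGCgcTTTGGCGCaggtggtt
In E2F1 the matches begin 33 and 20 bases before the start, and in RBL1 26 and 16 bases before it. A match is a description of letters and says nothing of binding in these cells.

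Of the 5 S phase members, 3 fell with both compounds, 1 rose with both and 1 was called in opposite directions. Beside these stand 31.3% lower and 31.8% higher of all genes with CCF642, and 27.9% and 29.7% with CCF642-34. CCNA2, encoding cyclin A2, the partner of CDK2 in S phase and of CDK1 later, was at 190 and 193 in DMSO, 109 and 103 with CCF642, and 108 and 109 with CCF642-34. The 2 treated groups overlapped each other, and the log2 fold changes were −0.84 (SE 0.050, adjusted p = 7.74e-20) and −0.81 (SE 0.050, adjusted p = 5.53e-19). RBL1 (p107), an RB relative that binds E2F4 as cells cycle, was at 67.5 and 71.3 in DMSO, 52.7 and 52.2 with CCF642, and 44.6 and 46.3 with CCF642-34. It fell by −0.40 (adjusted p = 9.75e-07) and −0.60 (adjusted p = 6.43e-11) on the log2 scale.

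The atypical E2F proteins E2F7 and E2F8 bind DNA without a DP subunit and repress E2F targets. Their genes moved apart with CCF642, whereas both were called as lower with CCF642-34. E2F8 was at 63.7 and 63.1 in DMSO, 31.3 and 27.8 with CCF642, and 25.1 and 24.3 with CCF642-34, a 2.11-fold fall with CCF642 (log2 fold change −1.08, SE 0.079, adjusted p = 1.11e-16) and a 2.51-fold fall with CCF642-34 (−1.33, SE 0.079, adjusted p = 9.90e-20). E2F7 was at 85.5 and 80.2 in DMSO, 96.4 and 104 with CCF642, and 72.2 and 71.6 with CCF642-34. Its 3 groups did not overlap, and it was higher with CCF642 (0.27, adjusted p = 7.74e-05) and lower with CCF642-34 (−0.20, adjusted p = 0.00268), the last not called without DMSO replicate 1 (−0.16, adjusted p = 0.0890). E2F6, a repressor that works through Polycomb-type complexes, was at 18.6 and 16.5 in DMSO, 22.4 and 29.9 with CCF642, and 28.5 and 30.6 with CCF642-34. It rose with both compounds (0.54, adjusted p = 9.74e-06, and 0.72, adjusted p = 3.85e-08), and it has 4 named pseudogene copies. Its CCF642 libraries lay far apart, so that the value with CCF642 was 0.34 (adjusted p = 0.0048) without CCF642 replicate 2 and 0.74 (adjusted p = 6.76e-10) without CCF642 replicate 1, and a gene-wise model called neither rise (adjusted p = 0.104 and 0.0675).

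All 7 G2/M members fell with each compound, where 31.3% (CCF642) and 27.9% (CCF642-34) of all genes were lower. CCNF, which encodes cyclin F, an F-box protein that marks other proteins for degradation and binds no CDK, was at 118 and 114 in the DMSO libraries, 33.0 and 33.0 with CCF642, and 38.04 and 39.8 with CCF642-34. It had the lowest value of all members with CCF642, 3.44-fold lower (log2 fold change −1.78, SE 0.066, adjusted p = 6.88e-28), and was 2.93-fold lower with CCF642-34 (−1.55, SE 0.066, adjusted p = 3.09e-25), while 11.8% of its exon bases overlap genes on the opposite strand. CCNB1, encoding cyclin B1, the partner of CDK1 in mitosis, was at 143 and 141 in DMSO, 63.1 and 64.7 with CCF642, and 74.8 and 82.2 with CCF642-34. Its log2 fold changes were −1.14 (SE 0.057, adjusted p = 8.84e-23) and −0.85 (SE 0.057, adjusted p = 9.79e-18). CCNB2, encoding cyclin B2, was at 80.9 and 80.3 in DMSO, 41.8 and 41.0 with CCF642, and 54.3 and 54.8 with CCF642-34. The 3 groups of CCNB2 were well apart, with log2 fold changes of −0.94 (SE 0.064, adjusted p = 1.04e-17) and −0.55 (SE 0.064, adjusted p = 3.16e-10).

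CDK1, the mitotic kinase, was at 192 and 187 in DMSO, 107 and 106 with CCF642, and 119 and 122 with CCF642-34, with log2 fold changes of −0.83 (adjusted p = 7.24e-20) and −0.65 (adjusted p = 6.19e-16). CKS2, a small subunit that binds CDK1, was at 66.4 and 73.0 in DMSO, 39.7 and 32.3 with CCF642, and 45.9 and 40.8 with CCF642-34, with log2 fold changes of −0.94 (adjusted p = 9.62e-15) and −0.67 (adjusted p = 3.24e-10). WEE1, the kinase that holds CDK1 inactive, was at 112 and 101 in DMSO, 62.4 and 67.7 with CCF642, and 53.9 and 54.7 with CCF642-34. The inhibitor fell along with the kinase and its cyclins, by −0.70 (adjusted p = 6.48e-14) and −0.96 (adjusted p = 2.37e-18) on the log2 scale. CDKN3, a phosphatase that acts on CDKs, was at 17.1 and 16.1 in DMSO, 13.1 and 12.0 with CCF642, and 14.8 and 12.4 with CCF642-34. Its log2 fold change was −0.38 with CCF642 (adjusted p = 0.00335) and −0.27 with CCF642-34 (adjusted p = 0.0370), the last not called without DMSO replicate 1 (−0.23, adjusted p = 0.199), DMSO replicate 2 (−0.32, adjusted p = 0.0710) or CCF642-34 replicate 2 (−0.15, adjusted p = 0.378).

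Genes of G2/M are known to carry in their promoters a cell cycle homology region, read by the DREAM and MYB-MuvB complexes, near CCAAT boxes, read by NF-Y. The letters TTTGAA, on either strand, were in a promoter window of 5 of the 6 G2/M members that had one, all but CCNB1, against 13.9% of all listed genes with a window, and CCAAT was in all 6, against 43.9%. Over all members 9 of 31 held TTTGAA. Of these, CCNB2, CCNF, CDK1, CDKN3, CKS2, RBL2 and TFDP2 were lower with each compound, E2F3 was higher with each, and CKS1B, with 5 CCAAT boxes as well, was higher with CCF642-34 and not called with CCF642. The promoters of CCNB2, CCNF and CKS2 and that of CKS1B are shown so that the places of these letters can be read side by side, as the 250 bases before the start in the direction of transcription with TTTGAA and CCAAT, or their reverse complements, in capitals.
CCNB2 (chr15:59104896-59105145, plus strand): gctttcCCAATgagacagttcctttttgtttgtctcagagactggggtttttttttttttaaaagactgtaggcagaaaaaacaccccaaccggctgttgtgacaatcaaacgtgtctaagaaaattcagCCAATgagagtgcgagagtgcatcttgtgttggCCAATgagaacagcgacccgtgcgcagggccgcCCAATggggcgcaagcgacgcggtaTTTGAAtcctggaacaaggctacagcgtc
CCNF (chr16:2429197-2429446, plus strand): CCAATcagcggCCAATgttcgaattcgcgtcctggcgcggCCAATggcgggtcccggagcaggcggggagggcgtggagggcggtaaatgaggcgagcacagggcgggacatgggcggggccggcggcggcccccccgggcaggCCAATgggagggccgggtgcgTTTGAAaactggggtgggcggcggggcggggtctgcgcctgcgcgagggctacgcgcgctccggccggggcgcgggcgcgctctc
CKS2 (chr9:89310945-89311194, plus strand): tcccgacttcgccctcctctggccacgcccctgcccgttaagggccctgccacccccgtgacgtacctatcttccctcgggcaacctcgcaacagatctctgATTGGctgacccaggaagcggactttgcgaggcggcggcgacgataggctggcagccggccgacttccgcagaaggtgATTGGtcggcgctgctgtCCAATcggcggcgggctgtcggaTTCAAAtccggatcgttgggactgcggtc
CKS1B (chr1:154974431-154974680, plus strand): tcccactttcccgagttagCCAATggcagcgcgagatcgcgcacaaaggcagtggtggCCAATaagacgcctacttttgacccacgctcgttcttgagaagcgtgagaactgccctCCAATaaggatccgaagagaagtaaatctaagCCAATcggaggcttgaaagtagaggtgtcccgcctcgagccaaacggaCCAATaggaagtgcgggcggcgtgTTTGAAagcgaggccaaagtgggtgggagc
The TTTGAA match begins 29 bases before the start in CCNB2 and CKS2, 30 in CKS1B and 85 in CCNF. Whether these letters have a part in the levels was not tested.

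The 4 members with no single phase rose with each compound, where 31.8% (CCF642) and 29.7% (CCF642-34) of all genes were higher. CDK7, the kinase that activates other CDKs and phosphorylates RNA polymerase II at the start of transcription, was at 20.6 and 21.0 in DMSO, 36.4 and 38.6 with CCF642, and 31.6 and 37.3 with CCF642-34. It had the highest log2 fold change of all members with CCF642, 0.82 (SE 0.086, adjusted p = 1.54e-11), and 0.70 (SE 0.086, adjusted p = 1.83e-09) with CCF642-34. CCNG1, encoding cyclin G1, a target of p53, was at 187 and 184 in DMSO, 221 and 212 with CCF642, and 245 and 257 with CCF642-34. The 3 groups stood in that order without overlap, with log2 fold changes of 0.22 (adjusted p = 2.97e-05) and 0.44 (adjusted p = 1.01e-11). CCNG2, encoding cyclin G2, which is associated with cell cycle exit, showed the same order at 60.3 and 59.0, 66.8 and 66.9, and 83.5 and 77.9, with log2 fold changes of 0.16 (adjusted p = 0.0194) and 0.43 (adjusted p = 5.05e-08). CDK9, the kinase of transcription elongation, was at 69.9 and 65.0 in DMSO, 77.5 and 74.1 with CCF642, and 80.3 and 77.4 with CCF642-34, with log2 fold changes of 0.17 (adjusted p = 0.0141) and 0.22 (adjusted p = 0.00137).

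The smaller of these rises depended on the scaling. When scaled by library size alone, CCNG1 (0.089), CCNG2 (0.030) and CDK9 (0.035) were not called with CCF642, nor CDK9 (0.14, adjusted p = 0.0502) with CCF642-34. With CCF642, CCNG2 was not called without DMSO replicate 1 (0.18, adjusted p = 0.0597) or DMSO replicate 2 (0.15, adjusted p = 0.123), and CDK9 was not called without DMSO replicate 2 (0.12, adjusted p = 0.223) or CCF642 replicate 1 (0.14, adjusted p = 0.0796). With CCF642-34, CDK9 was not called without DMSO replicate 2 (0.17, adjusted p = 0.0670).

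**Figure D3:**
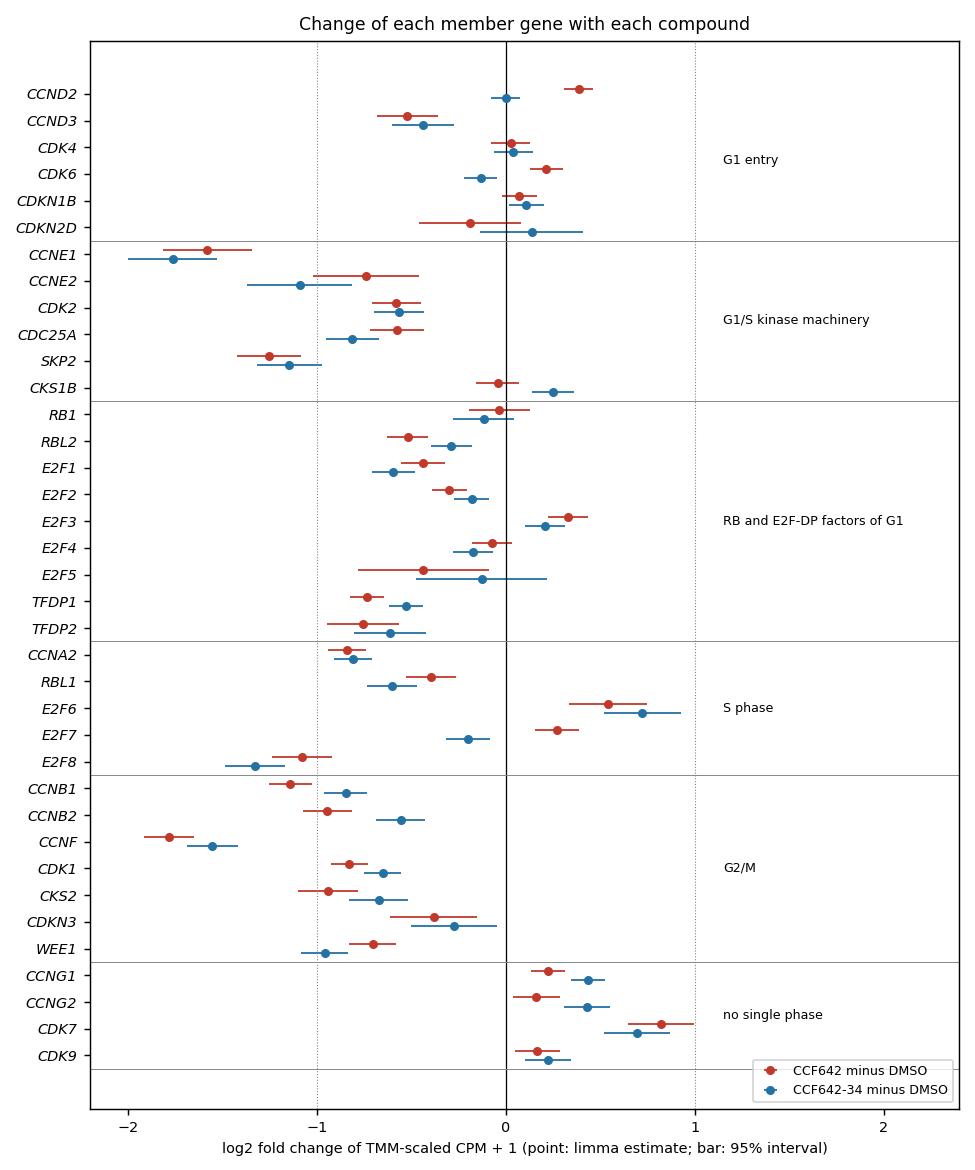
Log2 fold change of each member against DMSO, grouped by role, with CCF642 in red and CCF642-34 in blue; points are limma estimates over 2 libraries per group, bars are 95% intervals, and dotted lines mark 2-fold changes. The G2/M rows lie to the left of 0 for both compounds, from −1.78 for CCNF to −0.27 for CDKN3, and the rows with no single phase to the right of 0.

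Set side by side, CDK6 and E2F7 were called in opposite directions with the compounds, and CDK4, CDKN2D and RB1 were called with neither. Both comparisons rest on the same DMSO libraries, so the compounds were also compared directly, as 1 pair at the same dose and time. With CCF642-34 relative to CCF642, 11 members were higher, 9 lower and 17 not called, where 33.4% of all genes were called, 15.9% as higher and 17.5% as lower. No member differed 2-fold, which 0.308% of all genes did, 0.299% in the lower direction. The median difference was 0.057 on the log2 scale, against 0.0091 over all genes. Scaling by library size alone gave 12 members higher and 6 lower. Under that scaling the median over all genes was 0.051, and 61.8% of the genes called were higher, against 47.7% after TMM scaling. The member counts thus moved in the same direction as those of all genes.

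Of the 7 G2/M genes, 5 were called as less reduced with CCF642-34 than with CCF642, and WEE1 as more reduced. Of all genes 15.9% were higher and 17.5% lower. Among the 5, only the calls of CCNB1 and CCNB2 held under every setting tried but the gene-wise model. The difference, CCF642-34 minus CCF642 on the log2 scale, was 0.39 for CCNB2 (95% interval 0.26 to 0.52, adjusted p = 4.41e-06), 0.29 for CCNB1 (0.18 to 0.41, adjusted p = 6.71e-05), 0.27 for CKS2 (adjusted p = 0.00629), 0.23 for CCNF (adjusted p = 0.00581) and 0.18 for CDK1 (adjusted p = 0.00429). For WEE1 it was −0.26 (−0.38 to −0.13, adjusted p = 0.00109), and for CDKN3 0.11 (−0.12 to 0.34), not called. Among the G1/S genes the difference was −0.24 for CDC25A (adjusted p = 0.00728) and −0.35 for CCNE2 (adjusted p = 0.0457), but 0.29 for CKS1B (adjusted p = 4.74e-05). Among the S phase genes it was −0.25 for E2F8 (adjusted p = 0.0119) and −0.20 for RBL1 (adjusted p = 0.0131). Of the RB and E2F-DP factors, E2F1 was lower (−0.16, adjusted p = 0.0304), and RBL2 (0.23, adjusted p = 7.19e-04), TFDP1 (0.20, adjusted p = 2.65e-04) and E2F2 (0.12, adjusted p = 0.0442) were higher. The largest difference in size was that of E2F7, an S phase gene, −0.47 (−0.59 to −0.35, adjusted p = 7.86e-09), followed by CCND2 among the lower genes, −0.39 (−0.46 to −0.31, adjusted p = 1.41e-11), and CDK6, −0.35 (−0.43 to −0.26, adjusted p = 9.68e-09). Higher with CCF642-34 were also CCNG2 (0.27, adjusted p = 5.52e-04) and CCNG1 (0.21, adjusted p = 1.75e-04).

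No difference was called for CDK2 (0.013, 95% interval −0.12 to 0.14) or its partner CCNA2 (0.033, −0.068 to 0.13), nor for SKP2 (0.11, −0.062 to 0.28) and CDK4 (0.013, −0.089 to 0.12). CCNE1 (−0.18, −0.42 to 0.055) and E2F6 (0.18, −0.023 to 0.39) were not called either, and their values depended on which CCF642 library was left out. Without CCF642 replicate 2 both were called, at −0.38 and 0.38, as was E2F3, at −0.15 from −0.12. Without CCF642 replicate 1, CCNE1 and E2F6 changed sign, to 0.018 and −0.020. CDKN2D (0.33, 0.054 to 0.60, adjusted p = 0.0573) was called without CCF642-34 replicate 2 (0.46, adjusted p = 0.0476) and when scaled by library size alone (0.36, adjusted p = 0.0313). Of the 20 calls, those of CCNB1, CCNB2, CCNG1, CCNG2, CKS1B and TFDP1 (higher) and of CCND2, CDK6, E2F7 and WEE1 (lower) held under every setting tried but a gene-wise model that shares no variance between genes, under which CCNB2 and CCND2 were called.

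The other 10 calls were each lost without at least 1 library, none was called by the gene-wise model, and 4 of them were also lost under other scalings or tests. When scaled by library size alone, CCNE2 (adjusted p = 0.0746), E2F1 (adjusted p = 0.124) and RBL1 (adjusted p = 0.0517) were not called, and E2F2 was not called with DESeq2 size factors (adjusted p = 0.0618). In a fit of only the 2 groups compared, and by DESeq2 on recovered reads, CCNE2, E2F1 and E2F2 were not called, nor was CCNE2 by edgeR (adjusted p = 0.0509). Without CCF642-34 replicate 1, those of CDC25A (−0.17), RBL1 (−0.18), CKS2 (0.19), CCNE2 (−0.30) and E2F2 (0.12) were lost, and without CCF642-34 replicate 2 those of CCNF (0.20), CDK1 (0.16), RBL2 (0.16), E2F8 (−0.22), E2F1 (−0.076), CCNE2 (−0.40) and E2F2 (0.12). Without CCF642 replicate 1, E2F8 (−0.17), CCNE2 (−0.34) and E2F2 (0.11) were not called and CKS2 was at 0.41, and without CCF642 replicate 2, CKS2 (0.12), E2F1 (−0.14) and CCNE2 (−0.36) were not. CCNE2 and E2F2 also lost their calls without either DMSO library, through the spread that all groups share, at −0.35 and 0.12.

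**Figure D4:**
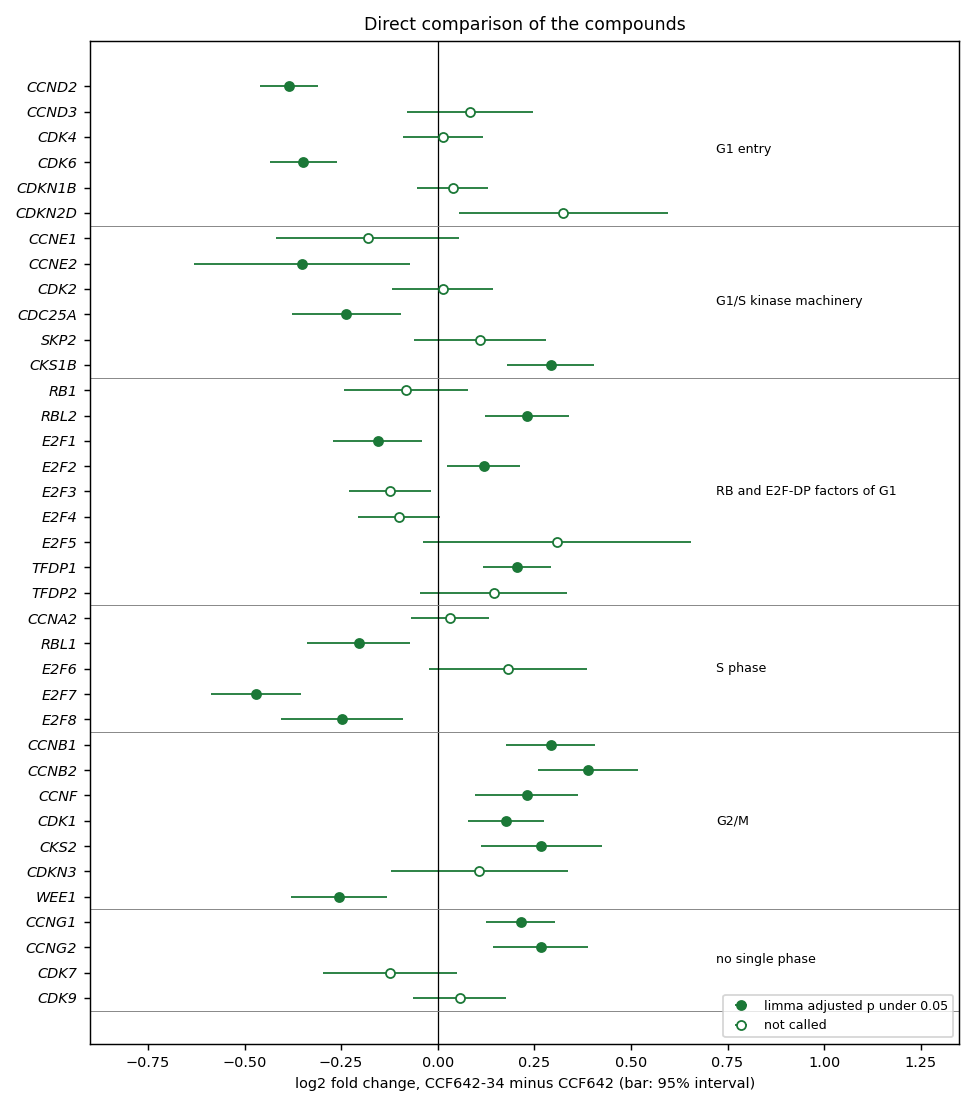
Difference between the compounds for each member, as the log2 fold change of CCF642-34 against CCF642 with its 95% interval; filled points have an adjusted p under 0.05 and open points do not. In the G2/M rows 5 of 7 points are filled and to the right of 0, up to 0.39 for CCNB2, and that of WEE1 is filled at −0.26.

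Genes downstream of E2F moved mostly the same way. Of 21 E2F target genes, most of whose products copy DNA or supply its building blocks, 15 were lower and 4 higher with CCF642, and 15 lower and 3 higher with CCF642-34. Of all genes 31.3% were lower and 31.8% higher with CCF642, and 27.9% and 29.7% with CCF642-34. The median log2 fold change of the targets was −0.39 and −0.46. UHRF1, which maintains DNA methylation, was at 129 and 138 in DMSO, 47.5 and 50.5 with CCF642, and 50.1 and 47.3 with CCF642-34, with log2 fold changes of −1.43 and −1.44 (adjusted p = 3.90e-25 and 5.57e-25). PCNA, the sliding clamp of DNA polymerases, followed at −0.91 and −1.05, then MCM2 at −0.72 with CCF642 and MCM4 at −0.75 with CCF642-34, both subunits of the replicative helicase. Genes whose products load this helicase were among the targets that rose instead. CDC6 was at 99.3 and 97.3 in DMSO, 148 and 145 with CCF642, and 126 and 130.5 with CCF642-34, with log2 fold changes of 0.57 and 0.38 (adjusted p = 8.51e-14 and 1.03e-08). CDT1 (0.40 and 0.15) and the helicase subunit MCM6 (0.25 and 0.13) were also called as higher with both. Between the compounds, 1 of the 21 (4.76%) was higher and 6 (28.6%) were lower with CCF642-34, beside 15.9% and 17.5% of all genes. In either direction 33.3% of the targets and 33.4% of all genes were called.

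Of 45 further cyclins, CDKs and regulators, 43 were listed (CCNA1 and CDK20 were not), of which 20 were higher and 13 lower with CCF642, and 21 higher and 9 lower with CCF642-34. The lower shares, 30.2% and 20.9%, stand beside 31.3% and 27.9% of all genes, and the higher shares, 46.5% and 48.8%, beside 31.8% and 29.7%. CDKN1A, encoding the CDK inhibitor p21, a p53 target, rose most. It was at 19.8 and 18.6 in DMSO, 139.8 and 128 with CCF642, and 119 and 114 with CCF642-34, with log2 fold changes of 2.74 and 2.54 (adjusted p = 1.14e-36 and 5.20e-35). After it came CDK17 (1.14 and 0.86), then CCNH, the cyclin partner of CDK7, with CCF642 (1.03) and LIN37, a subunit of the DREAM complex, with CCF642-34 (0.79). The lowest values were those of CCND1 (−0.77 and −0.60), listed at 1.87 to 5.37, and CDC25C, the phosphatase that activates CDK1 (−0.70 and −0.53), followed by CDK19 with CCF642 (−0.58) and FBXO5, an inhibitor of the anaphase-promoting complex, with CCF642-34 (−0.49). Between the compounds, 4 of the 43 (9.3%) were higher and 14 (32.6%) lower with CCF642-34, beside 15.9% and 17.5% of all genes.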

How the data were processed

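RNA-seq libraries of MM1.S cells were analysed from the deposited expression table. Its values are CPM, which the authors deposited after alignment with STAR to hg19 and processing with edgeR 3.24.3 and limma 3.38.3, per the submitters' processing notes; the counting tool and the annotation are not given in the sources used here. The table holds 11048 genes, each reaching at least 1.50 CPM in some library, and the 6 single-library files hold the same values. All values were whole multiples of the worth of 1 read (tolerance 0.01 reads), so depth could be recovered; in the 2 CCF642-34 libraries the smallest listed value came to 5 and 3 reads, so their depth rests on the largest step that makes all values whole. CPM are not counts, so the main test was limma 3.58.1 (R 4.3.3, trend, two-sided) on log2(TMM-scaled CPM + 1), with TMM factors from edgeR 4.0.16, a pseudocount of 1, no further filter, all 6 libraries in 1 fit and Benjamini-Hochberg adjustment over all genes. Fold changes are on that scale, which understates the change of low genes. The main call was an adjusted p under 0.05, and a 2-fold change with an unadjusted p under 0.05, the criterion stated for the study, was a further one. Intervals are 95% and rest on 3 residual and 42.9 prior degrees of freedom.

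Groups came from the sample labels. All member genes were named, and from the 2 further lists the 3 largest rises and falls with each compound. The members, their grouping by role and the lists were chosen with earlier results of these data known. Promoter windows came from RefSeq (GRCh38.p14) and overlapping genes and pseudogenes from GENCODE 29, both independent of the hg19 alignment, so no other coordinates are given. Scripts were tested on simulated data. Alternatives were another scaling, other pseudocounts, a filter at a mean of 5 CPM, other samples in the fit, a replicate block, edgeR and DESeq2 1.42.0 tests on the recovered reads, a gene-wise model and leaving out each library.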

Additional observations from a re-analysis of the deposited data

How the results depend on the processing

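Over the planned settings, 1773 values of single members were recomputed: 1641 kept their direction and their side of the threshold, 97 lost their call, 13 gained one and 22 changed sign, and every value that changed sign was not called in the main fit. The counts of lower members with each compound against DMSO and of 2-fold members stayed within 1.5 times under all settings. Scaling by library size alone reduced the members higher to 5 with CCF642 and 5 with CCF642-34, and gave member medians of −0.54, −0.38 and 0.10 (CCF642 and CCF642-34 against DMSO, then CCF642-34 against CCF642). It turned the sign of CDK4 (−0.11 with CCF642, −0.050 with CCF642-34) and of CDKN1B with CCF642 (−0.062), and the edgeR test on recovered reads gave 2.84e-05 for CCND2 with CCF642-34. Medians also moved to −0.38 with CCF642 under a pseudocount of 4 and to −0.37 with CCF642-34 under the filter at 5 CPM. The gene-wise model, which shares no variance between genes, left 5 members higher with CCF642 and 4 with CCF642-34, and between the compounds 1 higher and 1 lower, with 4106 and 738 genes called with CCF642-34 against DMSO and against CCF642. Falls it did not call were those of CDK6, CDKN3, CKS2, E2F4, E2F7 and RBL2 with CCF642-34, and of CDKN3 and E2F5 with CCF642. Rises it did not call were those of CDK9, CDKN1B, CKS1B and E2F6 with CCF642-34, and of CCNG2, CDK6, CDK9 and E2F6 with CCF642.

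Leaving out 1 library at a time moved the member median from −0.45 to −0.39 with CCF642 and from −0.39 to −0.24 with CCF642-34. Signs turned within these ranges: against DMSO with CCF642, CDK4 from −0.0083 to 0.060, CKS1B from −0.13 to 0.042 and RB1 from −0.16 to 0.090; with CCF642-34, CCND2 from −0.014 to 0.015 and E2F5 from −0.28 to 0.027. Between the compounds the ranges were −0.021 to 0.047 for CDK4, −0.026 to 0.10 for CDKN1B, −0.38 to 0.018 for CCNE1, −0.046 to 0.073 for CDK2, −0.21 to 0.042 for RB1, −0.0080 to 0.074 for CCNA2, −0.020 to 0.38 for E2F6 and −0.013 to 0.23 for CDKN3. A lone library left in a group was assumed to vary like the others. Library deviations of equal replicate number correlated at −0.0089, −0.056 and 0.047 over 11048 genes, so no large shared effect of the number was seen. These correlations cannot show whether libraries of equal number were handled together. A fit with the replicate number as a block kept 9 members higher and 22 lower with CCF642, 8 and 24 with CCF642-34, and 11 and 9 between the compounds, and changed no call. With 2 libraries a group, members at a few CPM, such as E2F5, carry the widest intervals.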
